A study of Mus musculus with 9 samples.

Results

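The 10 genes examined take up arginine, turn it into nitric oxide or urea, or lead its product ornithine into polyamines, and their levels were followed in microglia fed apoptotic cells. Arg1, Arg2, Nos2, Ass1, Asl, Odc1, Slc7a2, Sat1, Oaz1 and Srm were taken by gene symbol from the probes of the arrays, with no use of their measured values in the rule. These 10 genes of 34650 gene names were represented by 16 of 55681 probes, and all 16 probes were well above background on all 9 arrays. Microglia were cultured from the brains of fms-EGFP mouse pups of postnatal day 0 to 1, in which the promoter of the Csf1r (fms) gene drives a green fluorescent protein in myeloid cells, on a C57BL/6 background. All cultures received GM-CSF at 5 ng/ml and were grown for about 14 d. Control microglia were naïve and were collected at time 0 h. Ph3h and Ph24h microglia had been fed for 3 h or 24 h with SH-SY5Y cells, a human neuroblastoma line, made apoptotic with staurosporine at 3 µM for 4 h. Each group held 3 arrays, from independent experiments. The design holds no unfed culture at 3 h or 24 h, so feeding and time in culture cannot be told apart.

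Arginine enters macrophage-lineage cells mainly through cationic amino acid transporters. Arginases cut it into urea and ornithine, and nitric oxide synthases oxidize it into nitric oxide and citrulline, so both classes of enzyme draw on one substrate. Citrulline can be rebuilt into arginine by argininosuccinate synthase and lyase. Ornithine decarboxylase makes putrescine, the first polyamine, and is held down by antizymes, while acetylation marks polyamines for breakdown or export. Arg1 and Nos2 are widely used as opposing labels of macrophage states.

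RNA was measured on one-color 60-mer arrays. Intensities were divided by the 75th percentile of their array and are given as this relative intensity or as its log2. The 75th percentile intensity was 355.5 to 472.4 on control arrays, 184.9 to 211.2 on Ph3h arrays and 156.3 to 161.4 on Ph24h arrays, so every change below is relative to the rest of its array. Between 25623 and 29288 probes per array were well above background. In whole cultures, fewer cells of a type and less RNA per cell cannot be told apart. Groups were compared with limma over 24102 genes, each represented by its brightest probe, and a gene was called at a Benjamini-Hochberg adjusted p below 0.05.

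The microglial identity of the cultures was checked on 8 markers (Aif1, Csf1r, Itgam, Cx3cr1, P2ry12, Tmem119, Trem2 and Cd68). All 8 were well above background on the control and Ph3h arrays and 7 on each Ph24h array. The control arrays had a summed relative intensity of 1010 to 1056 for these markers, Ph3h arrays of 1344 to 1505 and Ph24h arrays of 897.3 to 941.0. Single markers went further than their sum: at 24 h limma called 6 of the 8 lower and 2 higher, among them Cx3cr1, the fractalkine receptor, 23.5-fold lower, Trem2, a lipid receptor, 2.70-fold lower, and Itgam, an integrin, 2.35-fold higher. P2ry12, a purinergic receptor, was called lower and was not well above background on the Ph24h arrays. Of 12 genes that mark SH-SY5Y neuroblastoma cells, 10 were tested, as Phox2a and Dbh did not pass the filter on dim probes. At 3 h, 8 were called higher, Gata3 lower and Chgb not. Gata3 was not well above background on any Ph3h array. At 24 h, 8 were called higher, and Gata3 and Chgb were not called. The sum of the list was 0.849 to 0.963 on control arrays, 1479 to 1612 after 3 h and 2244 to 2590 after 24 h. Vgf, a secreted neuropeptide precursor, carried most of that sum, with mean log2 relative intensities of -2.49, 10.40 and 11.13 in the 3 groups. Neutrophils can also carry Arg1. Of 5 neutrophil genes, Ly6g, Mpo and Ltf did not pass the filter on dim probes, and the sum of the list was 6.46 to 8.16 on control arrays, 7.93 to 8.57 after 3 h and 9.93 to 11.5 after 24 h. Elane carried that sum. Camp, a cathelicidin, had a log2 change of 1.06 at 3 h, or 2.08-fold higher (limma, adjusted p = 0.000475). At 24 h its log2 change was 2.94, or 7.66-fold higher (limma, adjusted p = 2.28e-06). The 5 oligodendrocyte-lineage genes, mostly through Mbp, summed to 21.3 to 22.2 on control arrays, 15.2 to 15.8 after 3 h and 13.3 to 14.4 after 24 h. The 6 astrocyte genes, mostly through Aldh1l1, summed to 6.43 to 7.59, 10.8 to 13.1 and 4.51 to 4.72, and the 6 neuron genes, mostly through Snap25, to 3.99 to 4.58, 11.5 to 15.6 and 14.1 to 15.7. The 5 endothelial genes summed to 7.41 to 10.6, 11.7 to 11.9 and 13.5 to 15.2, and the 5 fibroblast genes to between 0.889 and 1.79 on all arrays. The part of human RNA or of other cells in the results below was not tested.

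The probes of both arginases are shown first because the results turn on telling these related enzymes apart. Each is 60 bases long, and the capitals mark the longest run of bases that the pair shares.
Arg1: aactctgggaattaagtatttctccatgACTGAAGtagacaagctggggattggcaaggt
Arg2: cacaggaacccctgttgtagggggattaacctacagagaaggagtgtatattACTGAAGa
The Arg1 probe lies at chr10:24636194-24636253 on the minus strand and the Arg2 probe at chr12:80252972-80253031 on the plus strand of the mouse build mm9, as the array files place them. The shared run was 7 bases, and no ungapped alignment matched more than 21 of 60 bases. Over the 111 pairs of probes of different genes among the 10, the longest shared run was 8 bases. Exons and untranslated regions of this build were not analysed here.

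At 3 h, 5 of the 10 genes were called higher than control (Arg2, Ass1, Odc1, Sat1 and Oaz1), 3 lower (Arg1, Asl and Srm) and 2 were not called (Nos2 and Slc7a2). Of all genes tested, 53.8% were called at 3 h, 27.9% higher and 26% lower. At 24 h, 8 genes were called higher and 2 lower (Asl and Srm), where 63.1% of all genes were called, 29.9% higher and 33.2% lower. From 3 h to 24 h, 6 genes were called higher (Arg1, Arg2, Nos2, Ass1, Slc7a2 and Oaz1) and 2 lower (Odc1 and Srm), against 44.4% of all genes called, 20.4% higher and 24% lower. The arrays of Ph3h and control did not overlap for 9 of the 10 genes, Nos2 being the exception, and for 65.7% of all genes. Those of Ph24h did not overlap with control for any of the 10 genes (71.3% of all genes), nor with Ph3h (56.9%). The median log2 change of the 10 genes was 0.24 at 3 h and 1.14 at 24 h, against 0.065 and 0.0070 over all genes. With each array scaled to its median instead, the median of all genes was -0.18 at 3 h and -0.50 at 24 h, and the share of higher genes among those called went from 51.8% to 33.7% at 3 h and from 47.4% to 23.9% at 24 h. The range over 5 other normalizations is therefore given beside the smaller changes of the 10 genes below. It is not given for single genes of the pathway list, whose smaller changes can depend on the scaling in the same way.

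**Figure D1:**
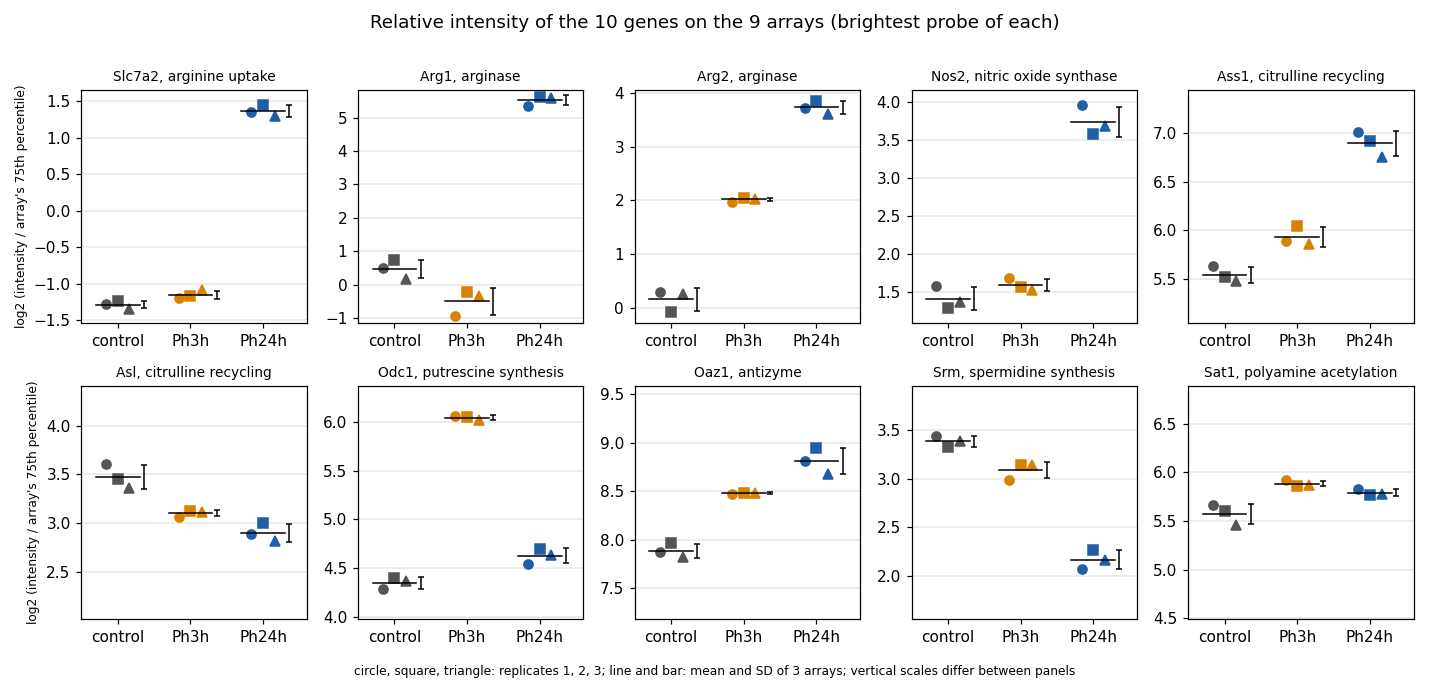
Log2 of relative intensity (vertical axis, intensity divided by the 75th percentile of the array) of the brightest probe of each gene in control, Ph3h and Ph24h arrays (horizontal axis). Symbols are single arrays, lines are means and bars are SD of 3 arrays, and the vertical scale differs between panels. Arg1 dipped at 3 h and lay highest at 24 h, while Odc1 peaked at 3 h.

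Slc7a2 encodes an inducible cationic amino acid transporter that carries arginine into the cell. Its relative intensity was 0.412, 0.424 and 0.396 in control replicates 1, 2 and 3, 0.435, 0.444 and 0.471 in Ph3h, and 2.55, 2.73 and 2.45 in Ph24h. The 3 h arrays sat just above the control arrays, and the 24 h arrays stood well apart. At 3 h the log2 change was 0.13 ± 0.064 (SE, n = 3), and limma's adjusted p was 0.117. The 95% confidence interval ran from 0.989-fold to 1.22-fold, and the sign turned with median scaling (-0.11). At 24 h Slc7a2 rose by 2.65 ± 0.064 on the log2 scale, or 6.28-fold (limma, adjusted p = 1.05e-07), and the 5 other normalizations gave 2.10 to 2.78.

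Slc7a1, the constitutive transporter for the same amino acids, was called lower at both times. Its log2 change was -0.20 ± 0.065 at 3 h (limma, adjusted p = 0.0320) and -2.49 ± 0.065 at 24 h, or 5.63-fold lower (limma, adjusted p = 1.60e-07). Both transporters were called, and they moved in opposite directions at 24 h, each by more than the spread between replicates. Slc3a2, the heavy chain that partners several amino acid transporters, was higher at 24 h by 0.47 (limma, adjusted p = 0.0028). Under median scaling the median of all genes was -0.50 at 24 h, so a rise of this size depends on the scaling. Slc7a7, a light chain of a basic amino acid exporter, went from 0.74 at 3 h (limma, adjusted p = 6.1e-05) to -1.14 at 24 h (limma, adjusted p = 5.9e-06).

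Arg1, the cytosolic arginase, fell first and rose most. Its relative intensity was 1.42, 1.66 and 1.12 in control, 0.514, 0.862 and 0.782 in Ph3h, and 40.8, 49.5 and 48.0 in Ph24h. No Ph3h array reached any control array, and every Ph24h array was far above both groups. The log2 change was -0.98 ± 0.22 at 3 h, 1.97-fold lower (limma, adjusted p = 0.00746), and 5.05 ± 0.22 at 24 h, 33.2-fold higher (limma, adjusted p = 1.70e-06). From 3 h to 24 h it rose by 6.03 (65.4-fold). The fall at 3 h was -1.20 on slide 1, which held replicates 1 and 2 of each group, and -0.52 on slide 2, which held replicate 3. It remained called with each array left out in turn, at -1.13 to -0.75. The rise at 24 h was 4.87 and 5.42 on the 2 slides.

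Arg2, the mitochondrial arginase, rose in steps. Its relative intensity was 1.23, 0.941 and 1.19 in control, 3.94, 4.11 and 4.09 in Ph3h, and 13.2, 14.5 and 12.3 in Ph24h. The 3 groups did not overlap at any point. The log2 change was 1.86 ± 0.11 at 3 h, 3.64-fold (limma, adjusted p = 1.12e-05), and 3.58 ± 0.11 at 24 h, 11.95-fold (limma, adjusted p = 3.65e-07). From 3 h to 24 h the rise was 1.72 (limma, adjusted p = 1.98e-05). At 3 h both arginases were called, in opposite directions.

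Nos2, the inducible nitric oxide synthase, was near its control level at 3 h and rose at 24 h. Its relative intensity was 2.98, 2.44 and 2.58 in control, 3.20, 2.95 and 2.87 in Ph3h, and 15.5, 11.9 and 12.8 in Ph24h. Control and Ph3h arrays overlapped, and the Ph24h arrays were all higher. The log2 change at 3 h was 0.18 ± 0.12 (limma, adjusted p = 0.255), with a 95% interval of 0.930-fold to 1.37-fold, and median scaling gave -0.068. At 24 h Nos2 rose by 2.33 ± 0.12, or 5.02-fold (limma, adjusted p = 3.69e-06), with 2.34 and 2.31 on the 2 slides.

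**Figure D2:**
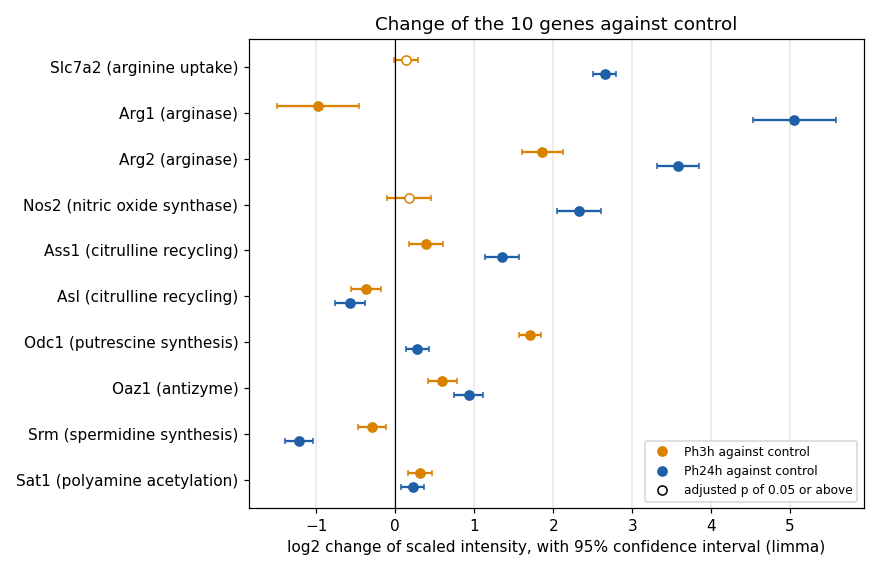
Log2 change against control with 95% confidence interval (horizontal axis) for each of the 10 genes (vertical axis) at 3 h and 24 h, with 3 arrays per group. Open symbols did not pass the adjusted p threshold. Arg1, Arg2, Slc7a2 and Nos2 had the largest changes at 24 h, from 2.33 to 5.05.

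Ass1 and Asl catalyze the consecutive steps that rebuild arginine from citrulline, and they moved apart. Ass1, argininosuccinate synthase, had relative intensities of 49.6, 46.0 and 44.5 in control, 59.2, 66.0 and 58.0 in Ph3h, and 129.4, 120.9 and 107.9 in Ph24h. The groups were ordered control, Ph3h, Ph24h with no overlap. The log2 change was 0.39 ± 0.090 at 3 h (limma, adjusted p = 0.00851) and 1.35 ± 0.090 at 24 h, 2.55-fold (limma, adjusted p = 1.31e-05). Over the 5 other normalizations the change was 0.14 to 0.35 at 3 h, where the call was lost with median scaling (adjusted p = 0.387), and 0.84 to 1.49 at 24 h, where the call held in all 5.

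Asl, argininosuccinate lyase, had relative intensities of 12.2, 11.0 and 10.3 in control, 8.37, 8.73 and 8.65 in Ph3h, and 7.41, 7.99 and 7.02 in Ph24h. It fell by 0.37 on the log2 scale at 3 h (SE 0.081, limma, adjusted p = 0.00616) and by 0.57 at 24 h, 1.49-fold lower (limma, adjusted p = 0.000581). Over the 5 other normalizations the change was -0.62 to -0.39 at 3 h and -1.08 to -0.44 at 24 h, called in all 5 at both times, with the largest falls under median scaling. The Ph24h arrays lay below the Ph3h arrays without overlap, yet that difference of -0.20 missed the threshold (limma, adjusted p = 0.0841, 95% interval 0.762-fold to 0.993-fold). Other settings called that step, as given in the closing section.

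Odc1, ornithine decarboxylase, was the member with a transient rise. Its relative intensity was 19.4, 21.0 and 20.6 in control, 67.2, 66.6 and 65.0 in Ph3h, and 23.4, 26.0 and 24.8 in Ph24h. The Ph3h arrays were tightly grouped above the other 2 groups. Odc1 rose by 1.70 ± 0.061 at 3 h, or 3.26-fold (limma, adjusted p = 9.30e-07), and then fell by 1.42 from 3 h to 24 h (limma, adjusted p = 2.86e-06). At 24 h it was 0.28 ± 0.061 above control (limma, adjusted p = 0.00515), but with median scaling the sign turned to -0.23 (adjusted p = 0.0230), in a range of -0.23 to 0.41 over the 5 other normalizations. The rise at 3 h was 1.73 and 1.66 on the 2 slides.

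Odc1 had 4 probes, and 1 of them lies apart from the other three in the gene, at chr12:17554799-17554858 (mm9, plus strand). It is shown because it reads the transcript away from the brightest probe.
Odc1: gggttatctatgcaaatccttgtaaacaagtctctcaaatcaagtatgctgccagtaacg
This probe gave 1.96 at 3 h and 0.43 at 24 h, and the brightest probe 1.70 and 0.28. The remaining probes overlap the brightest one in position and gave 1.74 and 1.84 at 3 h and 0.31 and 0.97 at 24 h. All 4 probes were called higher at both times and lower from 3 h to 24 h. Odc1 and Oaz1 have near-identical copies in mammalian genomes, and their probes were not aligned to the genome here.

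Oaz1 encodes antizyme 1, which binds ornithine decarboxylase, inhibits it and sends it to degradation. It had relative intensities of 234.6, 250.0 and 226.3 in control, 355.0, 358.6 and 359.1 in Ph3h, and 449.5, 494.8 and 410.2 in Ph24h. The groups rose in order without overlap. The log2 change was 0.59 ± 0.079 at 3 h (limma, adjusted p = 0.000526) and 0.93 ± 0.079 at 24 h, 1.90-fold (limma, adjusted p = 4.17e-05). Over the 5 other normalizations it was 0.31 to 0.56 at 3 h and 0.42 to 1.06 at 24 h, called in all 5 at both times. The second probe, which shares 54 consecutive bases with the first, gave 0.62 and 0.91. The step from 3 h to 24 h was 0.33 (limma, adjusted p = 0.0113) and was lost with median scaling (0.068, adjusted p = 0.660). Oaz1 was 1 of the 3 reference genes that the study used for its qPCR. The other two also passed the test on these arrays: Hprt, a purine salvage enzyme, was 0.59 higher at 3 h (limma, adjusted p = 0.000573) and changed by -0.43 at 24 h (limma, adjusted p = 0.00220), and Rpl27a, a ribosomal protein, was 0.51 higher at 3 h (limma, adjusted p = 0.000641) and 0.29 higher at 24 h (limma, adjusted p = 0.00908). The sign of Rpl27a turned with quantile normalization, to -0.31 at 3 h (adjusted p = 0.00148) and -0.48 at 24 h (adjusted p = 0.000129), while that of Hprt held in all 5 other normalizations.

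Srm, spermidine synthase, which extends putrescine, decreased. Its relative intensity on the brightest probe was 10.9, 10.0 and 10.5 in control, 7.95, 8.83 and 8.80 in Ph3h, and 4.20, 4.79 and 4.49 in Ph24h. The 3 groups did not overlap. It fell by 0.30 at 3 h (SE 0.074, limma, adjusted p = 0.0117) and by 1.22 at 24 h, 2.33-fold lower (limma, adjusted p = 8.38e-06). Over the 5 other normalizations the change was -0.54 to -0.31 at 3 h and -1.73 to -1.04 at 24 h. A second probe, at chr4:147968254-147968313 (mm9, plus strand), is shown because it parted from the first at 3 h.
Srm: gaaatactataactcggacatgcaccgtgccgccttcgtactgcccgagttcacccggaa
This probe gave -0.042 at 3 h (limma, adjusted p = 0.662) and -0.59 at 24 h (limma, adjusted p = 0.000314). The fall at 24 h was thus called on both probes, and the one at 3 h on 1 of 2.

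**Figure D3:**
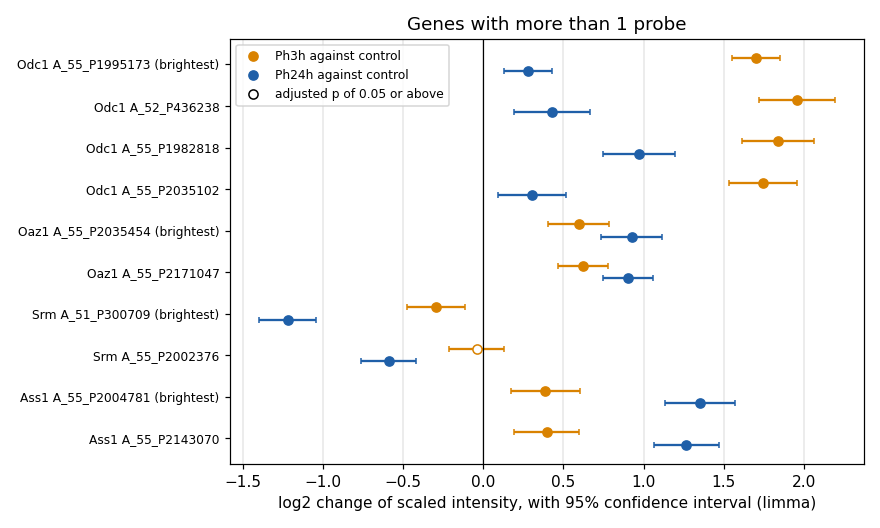
Log2 change against control with 95% confidence interval (horizontal axis) at 3 h and 24 h for every probe of Odc1, Oaz1, Srm and Ass1 (vertical axis), with 3 arrays per group. Open symbols did not pass the adjusted p threshold. The probes of a gene share their direction where called, and the second Srm probe gave -0.042 at 3 h.

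Sat1, the acetyltransferase that starts polyamine breakdown, changed by small amounts. Its relative intensity was 50.6, 48.6 and 44.1 in control, 60.6, 58.3 and 58.6 in Ph3h, and 56.9, 54.5 and 55.0 in Ph24h. Fed arrays lay above control arrays without overlap. The log2 change was 0.31 ± 0.064 at 3 h (limma, adjusted p = 0.00487) and 0.22 ± 0.064 at 24 h (limma, adjusted p = 0.0199). Only 1 of the 5 other normalizations called the change at 3 h (0.067 to 0.28), and at 24 h the values ran from -0.29 with median scaling (adjusted p = 0.0349) to 0.35. From 3 h to 24 h the change was -0.093 (limma, adjusted p = 0.283, 95% interval 0.844-fold to 1.04-fold).

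Differences between 2 genes of the same array do not depend on the scaling of that array, apart from quantile methods. The log2 difference of Nos2 minus Arg1 was 1.07, 0.56 and 1.20 in control, 2.64, 1.77 and 1.88 in Ph3h, and -1.39, -2.05 and -1.90 in Ph24h. It went up by 1.15 at 3 h and down at 24 h, where the change against control was -2.73. The groups did not overlap, and the exact two-sided permutation test gave p = 0.1 for each comparison (adjusted over 6 comparisons, 0.12), the smallest value that 3 against 3 arrays allow. Odc1 minus Sat1 was -1.38, -1.21 and -1.10 in control, 0.15, 0.19 and 0.15 in Ph3h, and -1.28, -1.07 and -1.15 in Ph24h. It went up by 1.39 at 3 h (exact permutation p = 0.1, adjusted 0.12). At 24 h it overlapped control, with a change of 0.061 (exact permutation p = 0.6). With the mean over the probes of each gene that change was 0.28 and the groups no longer overlapped (exact permutation p = 0.1). The probes of 2 genes bind with different strength, so only the change of such a difference, not its level, can be read.

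**Figure D4:**
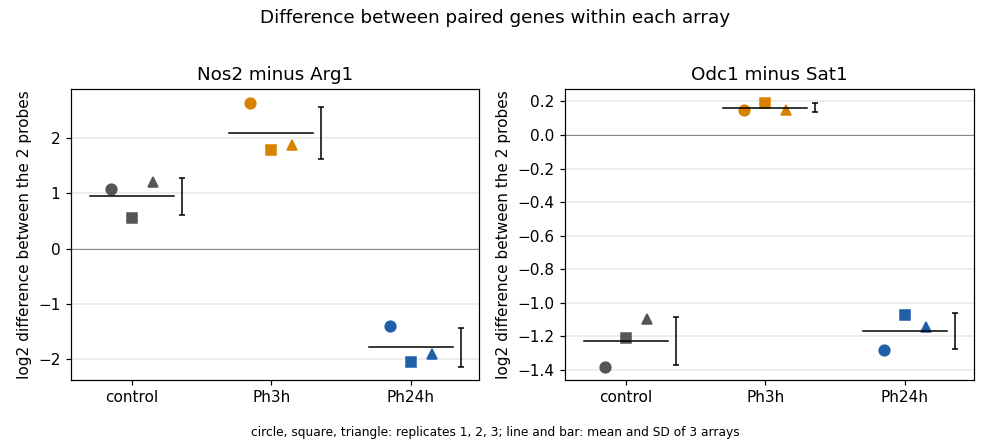
Log2 difference within each array (vertical axis) of Nos2 minus Arg1 and of Odc1 minus Sat1 in the 3 groups (horizontal axis). Symbols are single arrays, lines are means and bars are SD of 3 arrays. Nos2 minus Arg1 went from 0.94 in control to 2.10 in Ph3h and -1.78 in Ph24h, and Odc1 minus Sat1 was higher in Ph3h (0.16) than in control (-1.23) and Ph24h (-1.17).

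The study's own analysis fitted a regression on time, so the R2 of a polynomial of degree 2 in time was computed for each gene as a description. All 10 genes exceeded 0.7 and 9 exceeded 0.9, the exception being Sat1 (0.861), where 65.6% and 41.5% of all genes did so. With 3 time points this curve passes through the 3 group means. A straight line in time gave 0.985 for Nos2, 0.993 for Slc7a2 and 0.923 for Arg1, but 0.0635 for Odc1.

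The genes whose profiles over the 9 arrays lay nearest to 4 members were found by the root mean square difference of mean-centered log2 values. Nearest to Arg1 were Stfa2l1 (0.404), a stefin family protease inhibitor, the transcript ENSMUST00000077110 (0.436) and BC100530 (0.495). Their log2 changes at 24 h were 5.44, 5.30 and 5.50, but at 3 h they were -0.15, -0.18 and 0.032, where Arg1 was at -0.98. Nearest to Nos2 were the neuropeptide gene Npy (0.124), the chemokine gene Ccl5 (0.163) and the phosphatase gene Acpp (0.200). Nearest to Slc7a2 were Procr (0.124), the protein C receptor, the collagenase gene Mmp8 (0.141) and the serpin gene Serpinb12 (0.160). Nearest to Odc1 were an array probe without a gene symbol, A_55_P2130448 (0.0707), Arid5a (0.0767), an RNA-binding protein gene, and the glucose transporter gene Slc2a6 (0.0889). The last of these changed by 1.72 at 3 h and 0.39 at 24 h.

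A list of 54 other genes of these pathways was examined, of which 46 were tested. At 3 h, 14 were called higher, 14 lower and 18 not, with a median log2 change of -0.066. That was 60.9% called, against 53.8% of all genes. At 24 h, 7 were called higher, 25 lower and 14 not, with a median of -0.33 against 0.0070 over all genes. That was 69.6% called, against 63.1% of all genes (29.9% higher and 33.2% lower). From 3 h to 24 h, 6 were called higher and 24 lower, or 65.2% called, against 44.4% of all genes. More of the list was called lower than higher at 24 h under all 5 other normalizations. The splits ran from 8 higher and 21 lower to 5 higher and 33 lower. The last came from median scaling, where more of all genes were also called lower (3842 higher, 12261 lower). With the percentile over probes detected on all arrays, more of all genes were called higher (8459 higher, 6552 lower). The even split at 3 h went to 9 higher and 21 lower with median scaling, where all genes went to 4323 higher and 8515 lower.

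The 4 largest called rises at 3 h were Oaz2, Smox, Gch1 and Adc. Oaz2, a second antizyme, rose by 1.62 at 3 h (limma, adjusted p = 1.4e-06) and 2.13 at 24 h (limma, adjusted p = 2.9e-07). Smox, spermine oxidase, rose by 1.56 and 1.35. Gch1, the rate-limiting enzyme of tetrahydrobiopterin synthesis, a cofactor of nitric oxide synthases, rose by 1.24 and 0.82. Adc, now named Azin2, an antizyme inhibitor, rose by 0.93 and 1.71. At 24 h the fourth of the largest rises was Atp13a3, a polyamine transporter, at 0.93 after -0.085 at 3 h, which was not called. Azin1, the other antizyme inhibitor, went the opposite way from Azin2 at 24 h, at -1.62 (limma, adjusted p = 5.7e-07). Thus both antizymes tested were higher at 24 h, and the antizyme inhibitors were split.

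The largest called falls at 3 h were Slc25a15, Ddah2, Gchfr and Aldh18a1. Slc25a15, the mitochondrial ornithine carrier, was not well above background on any Ph3h array (limma, adjusted p = 0.0063), and no fold is given. Ddah2, annotated to clear methylarginine inhibitors of nitric oxide synthase, changed by -1.07 at 3 h and -0.53 at 24 h. Gchfr, the feedback regulator of Gch1, changed by -1.04 and -0.73. At 24 h the largest falls were those of Slc7a1, Aldh18a1, Gatm and Pycr1. Aldh18a1, which makes the precursor of proline and ornithine from glutamate, changed by -1.01 at 3 h and -2.40 at 24 h (limma, adjusted p = 1.1e-06). Gatm, which uses arginine for creatine synthesis, was at -0.14 at 3 h, which was not called, and -2.34 at 24 h (limma, adjusted p = 1.35e-06). Pycr1, a proline-forming reductase, was not well above background on the Ph24h arrays (limma, adjusted p = 0.024), and no fold is given.

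By list, the 4 tested genes of proline and glutamate metabolism were all called lower at 24 h (Aldh18a1, Pycr1, Pycrl and Prodh), against 33.2% of all genes. Another 29.9% of all genes were called higher, which made 63.1% called at 24 h. Of 6 genes for polyamine breakdown and transport, 2 were higher (Smox and Atp13a3) and 4 lower at 24 h, among them Paox (-1.15), which oxidizes acetylated polyamines, and Sat2 (-1.04). Of 7 genes for tetrahydrobiopterin supply, 1 was higher and 3 lower, with Qdpr, which regenerates the cofactor, at -0.93. That was 57.1% called, below the share of all genes. Of 7 genes for the other nitric oxide synthases and their partners, 3 were called lower at 24 h and 4 were not called. That was 42.9% called, again below the share of all genes. Nos1 was at 0.087 and Nos3 at -0.29, neither of them called. Eif5a, whose hypusine is built from spermidine, was 0.54 higher at 3 h (limma, adjusted p = 0.00032) and at -0.049 at 24 h, while Eif5a2 was called higher at both times (0.59 and 0.71).

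**Figure D5:**
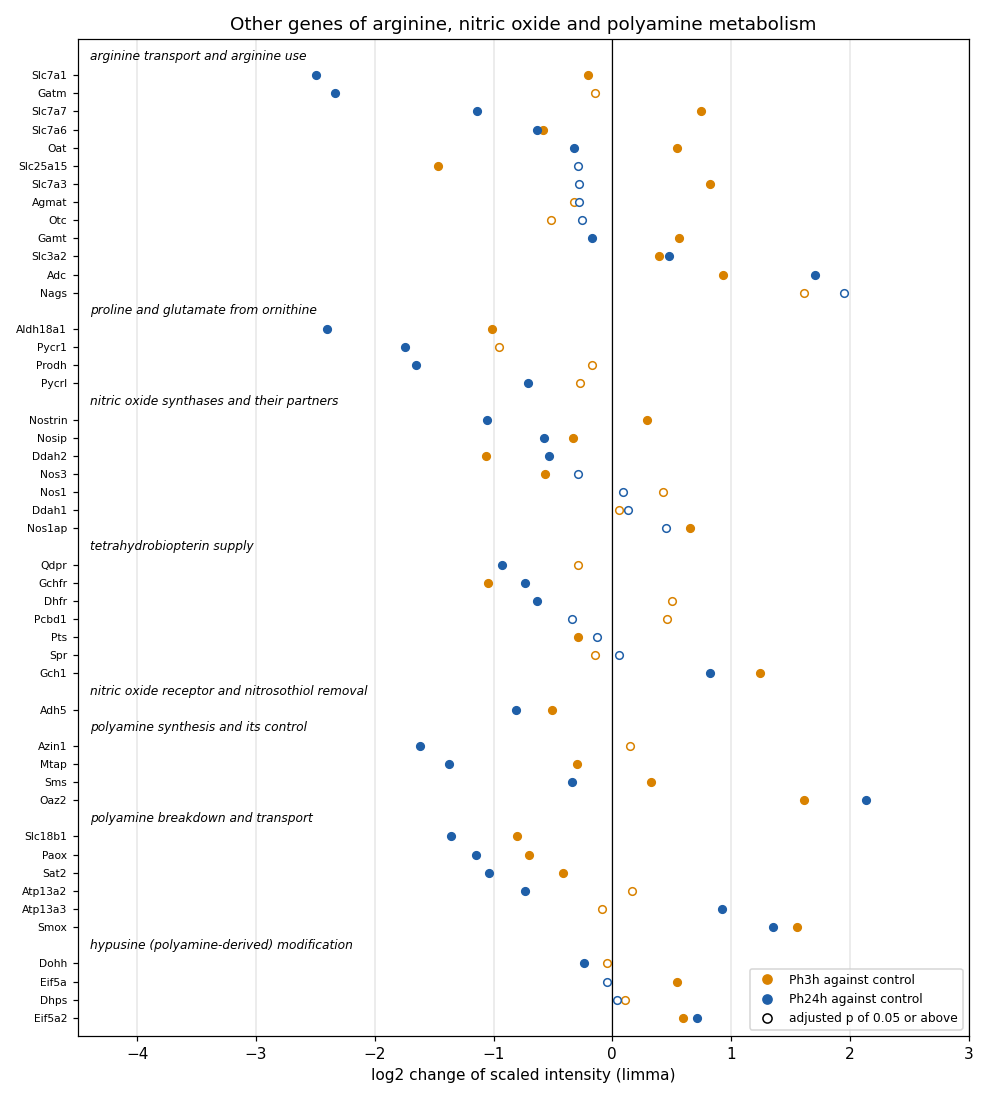
Log2 change against control (horizontal axis) at 3 h and 24 h for 46 other genes of arginine, nitric oxide and polyamine metabolism, grouped by list (vertical axis), with 3 arrays per group. Open symbols did not pass the adjusted p threshold. Slc7a1 (-2.49), Aldh18a1 (-2.40) and Gatm (-2.34) lie farthest to the left at 24 h and Oaz2 (2.13) farthest to the right.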

How the data were processed

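Total RNA from 9 cultures was hybridized to one-color 60-mer arrays. The deposited scanner files, made by the authors with Agilent Feature Extraction 10.7.3.1, give a background-subtracted, linear intensity per spot that is not normalized between arrays. The authors also deposited log2 values for 36655 probes, made with GeneSpring GX after a presence filter. Each probe there is centered over the arrays, and group differences rise with those of the scanner values with slopes of 0.956 (3 h) and 0.943 (24 h). Column medians were 0.0944, 0.0890 and 0.0978 (control), 0.00591, 0.00194 and -0.00565 (Ph3h) and -0.0712, -0.0471 and -0.0545 (Ph24h). Scale, centering and direction could thus be read from the values, and how the arrays were scaled to each other was not found in the methods. This table served as an alternative.

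Control spots and spots flagged as non-uniform or outliers were left out, intensities were scaled to the 75th percentile of their array (log2), and spots of a probe were averaged. A probe was kept if well above background on at least 1 of 9 arrays. A gene was represented by its brightest probe, which left 24102 genes. The 3 groups were fitted together in limma 3.58.1 (R 4.3.3) with Benjamini-Hochberg adjustment. The code was tested on simulated data. None of the non-control spots reached saturation. Precision is limited by having 3 arrays per group. The limma p-values rest on the spread between cultures within groups, pooled over the 3 groups and drawn by limma toward that of all genes. Arrays were not treated as paired by replicate number in the main fit. Deviations of same-numbered arrays did not correlate above 0.1, which cannot settle whether they came from the same experiment. Named were all members and their probes, the 3 nearest profiles of 4 members and the qPCR reference genes. Named from the pathway list were the 4 largest called rises and the 4 largest called falls in each comparison against control. Pathway genes with a role shared with a member were also named. Members, lists and tests were chosen with earlier results of these data known. Some genes of the lists are not reported here. Alternatives were other normalizations and filters, gene summaries, blocks, slides, and each array left out. Probe coordinates are those of the array files (mm9), with no annotation of that build used here.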

Additional observations from a re-analysis of the deposited data

Results flagged for a closer look

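For 8 of the 10 genes the change at 24 h differed from the change at 3 h in the test of the difference itself. Since both changes share the control arrays, this is limma's comparison of Ph24h with Ph3h. The log2 difference was 6.03 for Arg1, 1.72 for Arg2, 2.15 for Nos2, 0.97 for Ass1, 2.52 for Slc7a2 and 0.33 for Oaz1, all higher at 24 h. It was -1.42 for Odc1 and -0.92 for Srm, both lower at 24 h. Of all genes tested, 44.4% passed the same test. Asl and Sat1 did not. Arg1 was the only one of the 10 whose 2 changes against control were called in opposite directions.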

How the results depend on the processing

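The changes of the 10 genes were recomputed 708 times under other settings, of which 671 kept their direction and side of the threshold or moved by less than the replicate spread, and 7 reversed: with median scaling Nos2 (-0.068) and Slc7a2 (-0.11) at 3 h, neither called, and Odc1 (-0.23) and Sat1 (-0.29) at 24 h, both called; and Sat1 from 3 h to 24 h with quantile normalization (0.024), the percentile over probes detected on all arrays (0.073) and the authors' table (0.020). Median scaling also moved the median of all genes to -0.50 at 24 h. Quantile normalization, normexp and the authors' table are not independent of each other. The step of Asl from 3 h to 24 h became called with median scaling (-0.47) and with a trend in the variance (-0.20). That of Sat1 became called, as a fall, with median scaling (-0.36). The fall of Srm at 3 h was lost with the mean over its probes (-0.17) and on slide 1 alone (-0.32), where Odc1 (0.29) and Sat1 (0.17) lost their calls at 24 h. Leaving out control replicate 3 (0.16) or Ph24h replicate 1 (0.20) ended the call of Sat1 at 24 h, and no other call of a member. The counts of members and of other pathway genes called stayed within 1.5 times under every setting. Without any filter, the split of all called genes went from 51.8% to 66.9% higher at 3 h and from 47.4% to 65.0% at 24 h. With the percentile over probes detected on all arrays, it went from 46% to 63.6% between 3 h and 24 h. Of the differences within an array, only Odc1 minus Sat1 at 24 h turned its sign, ranging from -0.015 to 0.13 with 1 array left out; it was 0.16 with quantile normalization, 0.17 in the authors' table, 0.21 with normexp and 0.28 with the mean over probes. A straight line in time left 5 genes with R2 above 0.9, and a line in log2 of time plus 1 left 4. With the replicate block 8, 10 and 8 of the 10 genes were called at 3 h, 24 h and between them. Of the 46 other pathway genes, 25, 28 and 29 were called. For comparison, this block called 6501, 6982 and 4566 of all 24102 genes higher, in the same order of comparisons. Another 6018, 7788 and 5496 genes were called lower. The correlations of same-numbered arrays ran from -0.057 to 0.041. Each probe of Ass1, Odc1, Oaz1 and Srm on its own was added after seeing the data.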

Other observations

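Unscaled intensities are given here as values. The overall intensity of the arrays differed between groups, and whether RNA content, labeling or hybridization differed was not tested. Arg1 went from between 399.4 and 683.1 in control to between 6414 and 7736 in Ph24h, Arg2 from between 388.1 and 579.2 to between 1979 and 2259, Nos2 from between 917.5 and 1408 to between 1861 and 2445, and Slc7a2 from between 140.6 and 194.5 to between 395.8 and 426.3. Odc1 went from between 7333 and 9182 in control to between 12310 and 14190 in Ph3h, and to between 3674 and 4054 in Ph24h. For Ass1 the unscaled control and Ph24h ranges overlapped (15810 to 23450 and 17400 to 20360). Those of Oaz1 (80450 to 110800 and 66160 to 77300) and of Sat1 (15670 to 23910 and 8518 to 8945) were lower in Ph24h, although both genes were called higher after scaling. The same held for Odc1 at 24 h. In Ph3h the unscaled ranges of Ass1 (11540 to 12510), Oaz1 (66290 to 75000) and Sat1 (10770 to 12790) also lay below control, and these genes were called higher after scaling.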
